A study of Mus musculus with 4 samples.

Results

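The genes of the nuclear pore and of nuclear transport were read in RNA-seq of stimulated mouse CD4+ T cells, in 2 WT and 2 R111A libraries. They were the rows of the table whose symbol starts with Nup and a digit, with Kpna or Kpnb, with Ipo and a digit, or with Xpo and a digit or t, together with Ran, Ranbp1, Ranbp2, Rangap1, Rcc1, Cse1l, Tnpo1, Tpr and Ndc1. This gave 49 of the 16142 genes. WT cells were from the spleen of WT B6 mice, and R111A cells from the spleen of Cd4CreERT2 LSL-R111A fl/fl mice on the C57BL/6 background. In the latter, tamoxifen (75 mg/kg for 5 days) activates a Cre under control of Cd4, which removes a STOP cassette in the Rosa26 locus. The CAG promoter then drives a Regnase-1 whose arginine at the MALT1 cleavage site is replaced by alanine, followed by P2A and EGFP. Regnase-1, the product of Zc3h12a, is an RNase that degrades mRNA, and MALT1 is a protease that cleaves it after T cell receptor signaling. WT cells carry no Cre, transgene or EGFP, so these cannot be told apart from the R111A mutant. The protocol text with tamoxifen is the same for all 4 libraries and can be read as covering WT mice, and the paper names tamoxifen-treated WT mice as controls in other assays. By the study's methods, mice of both sexes and 6 to 12 weeks old were used unless stated otherwise, and the labels give no age or sex for these libraries. After bead purification and FACS, all 4 samples received 12 h of stimulation, by anti-CD3 at 5 µg/mL together with anti-CD28 at 1 µg/mL. Whether the 2 libraries of a group came from separate mice is not stated, so p-values measure the spread between these samples, which may be technical.

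Traffic between nucleus and cytoplasm passes through nuclear pore complexes, large assemblies of nucleoporins that form stacked rings, a central channel, cytoplasmic filaments and a nuclear basket. Importins and exportins carry proteins and RNA through the channel, and the small GTPase Ran gives the traffic its direction, because it is loaded with GTP at chromatin and hydrolyses it in the cytoplasm. Activated T cells grow and prepare to divide, and transcription factors such as NFAT and NF-κB enter their nuclei through these receptors.

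The labels were checked first. Zc3h12a had 17.0 and 15.7 FPKM in WT replicates 1 and 2 against 196 and 131 in R111A replicates 1 and 2, where FPKM is a level scaled by transcript length and by the reads of the library. Endogenous and transgenic transcripts cannot be told apart in these values. Cd4 had 158 and 131 FPKM in WT against 70.7 and 51.4 in R111A. Cd3e, a chain of the T cell receptor complex, had 172 and 157 FPKM in WT against 180 and 135 in R111A. Thy1, another T cell marker, had 96.5 and 98.1 FPKM in WT against 25.5 and 25.1 in R111A. Of the 2 CD8+ T cell markers, Cd8a was at most 0.20 FPKM in any library and Cd8b1 had 7.21 and 6.56 FPKM in WT against 3.86 and 4.39 in R111A. All 4 libraries thus held Cd4 and Cd3e, with Cd4 and Thy1 lower in R111A.

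Most nuclear pore and transport genes were lower in R111A CD4+ T cells. Of the 49 genes, 48 had a mean of at least 1 FPKM over the 4 libraries and were tested with limma on log2(FPKM + 1), with Benjamini-Hochberg adjustment over all 9831 genes tested. Nup62cl was not tested, at 0, 0.07, 0 and 0.08 FPKM. At an adjusted p under 0.05, 36 of the 48 genes (75%) fell in R111A, against 32.1% of all genes tested, and 1 gene, Nup210l, was called higher (2.08%), against 21.2% of all genes tested. With a 2-fold change in addition, 8 fell (16.7%, against 8.34% of all genes) and 1 was called higher (2.08%, against 8.52%). Nup210l passed the filter only through its R111A values, so it had to differ, and its count supports nothing. Each count by role further on is to be read against the same 32.1% lower, and each count past 2-fold against 8.34%. In roles of 2 to 5 genes such a count says little. Groups without overlap, also given by role, are to be read against 46.3% of all genes apart lower and 32% apart higher. The other 47 genes tested had means of at least 11.3 FPKM in WT. Both R111A values lay below both WT values for 43 of the 48 genes (89.6%, against 46.3% of all genes), and above both for 1 (2.08%, against 32% of all genes). For genes at low levels, the added 1 FPKM makes the fold change smaller than the ratio of the levels. The smallest two-sided p that exact permutation of 2 and 2 libraries allows is 0.333, so the calls rest on the model fitted across genes. In bulk RNA, fewer cells of a type and less RNA per cell cannot be told apart.

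The median log2 fold change of the 48 genes was -0.62, with quartiles at -0.91 and -0.43, and that of all genes was -0.12, with quartiles at -0.53 and 0.32. The fold change was negative for 47 of the 48 genes (97.9%) and for 57.6% of all genes. Of these 47, Nup153 turned positive with median-of-ratios factors and Nup153 and Rcc1 with quantile normalization, and none of the 47 was positive after rescaling to TPM, so that all libraries sum alike. TPM moved the median of all genes by -0.30, to -0.42, and relative to it the median of the 48 genes was -0.52, against -0.50 with FPKM as deposited. With TPM, 47 of the 48 genes were called lower, 22 of them past 2-fold instead of 8. TPM also moved the split of calls over all genes, from 3152 lower and 2088 higher to 5096 lower and 1335 higher. Without WT replicate 1, fewer of the 48 genes were called lower, and fewer of all genes were too. The median log2 fold change of the 48 genes was then -0.59, against -0.12 for all genes. Each of the 14 alternatives tried called 20 of the 36 genes lower, and the other 16 lost the call when a WT library was left out.

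**Figure D1:**
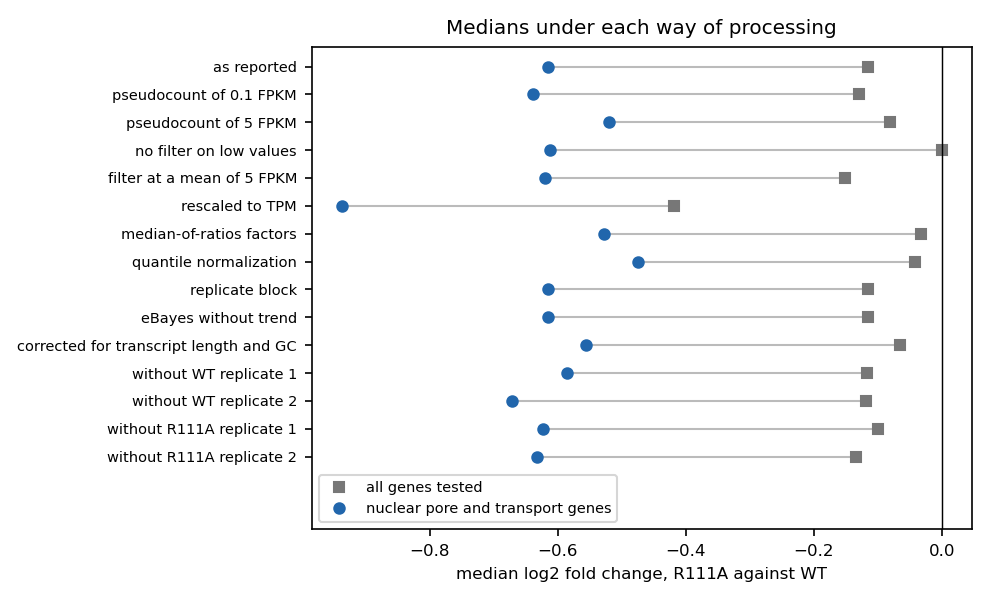
Median log2 fold change of the nuclear pore and transport genes (blue circles) and of all genes tested (grey squares) as reported and under each alternative. The blue median lay below the grey one in every row, and TPM moved both to the left.

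**Figure D2:**
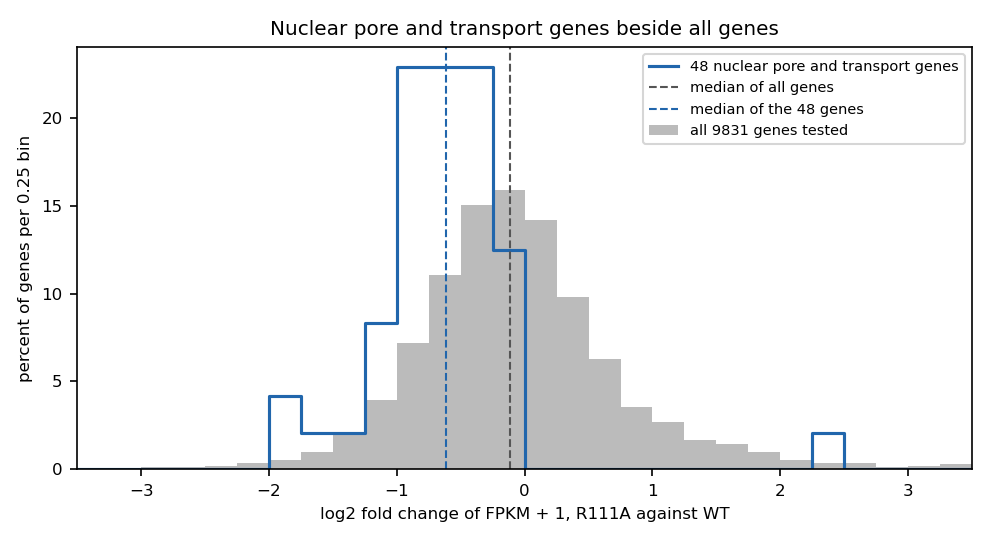
Distribution of log2 fold changes, R111A against WT, in bins of 0.25, as a percent of all 9831 genes tested (grey) and of the 48 nuclear pore and transport genes tested (blue line). Dashed lines are the medians, -0.12 and -0.62, the end bins hold all values beyond the axis, and the 1 gene far to the right is Nup210l.

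Summed over the 49 genes, the level was 3664 and 3710 FPKM in WT replicates 1 and 2, or 0.457% and 0.444% of the FPKM sum of the library. In R111A it was 2231 and 2325 FPKM, or 0.212% and 0.230%. The groups did not overlap, although all genes together summed to more in R111A (1053551 and 1012215 FPKM) than in WT (801475 and 836143 FPKM). The transport receptors as a group (importins and exportins, 21 genes) were at 53.6% of their summed WT level in R111A, and the 22 nucleoporins other than Nup210l at 67.2%. Whether the 2 shares differ was not tested.

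**Figure D3:**
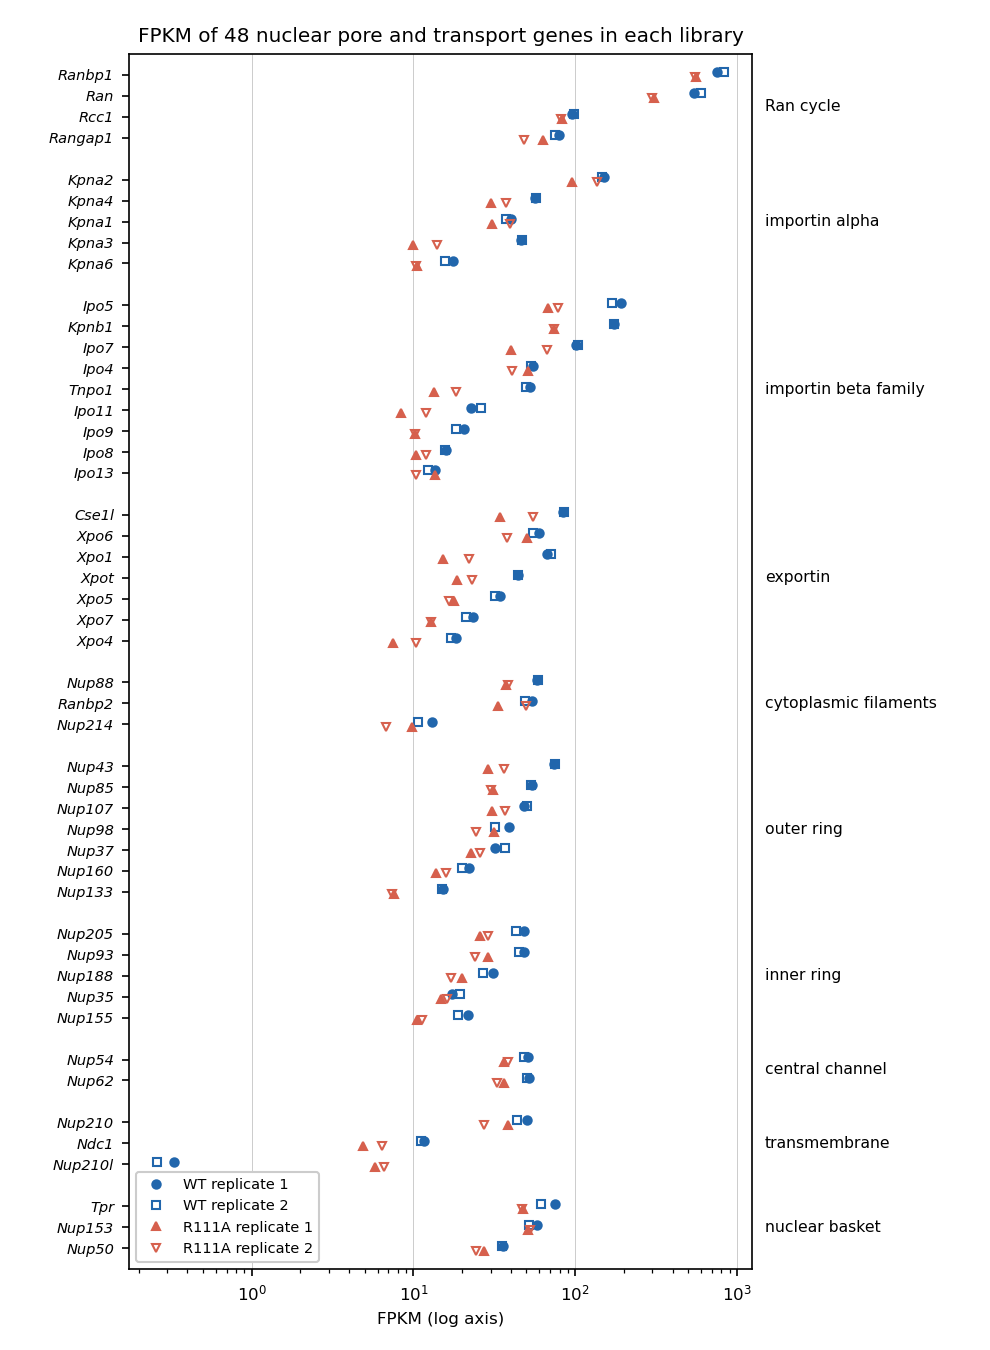
FPKM of the 48 genes tested in each library on a log axis, grouped by role and sorted by mean, with WT in blue and R111A in red. R111A values lay below both WT values for 43 genes, and Ran and Ranbp1 had the highest levels.

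The promoters of these genes were searched for 2 sequences. One is CACGTG, an E-box that MYC and related factors bind, which reads the same on both strands. The other is TTCCCGCC, or GGCGGGAA on the other strand, a sequence that E2F factors bind. RefSeq promoters of GRCm38.p6, 300 bases from 250 before to 50 after a listed gene start, were given for 39 of the 49 genes. Of these 39, 8 (20.5%) held CACGTG, against 8.09% of the 27025 genes with a promoter and 12.5% of the 8041 of them that were tested here. TTCCCGCC was in 3 of the 39 (7.69%), against 2.52% of the 27025 genes and 5.04% of the genes tested. The genes with CACGTG were Ran, Ranbp2, Ipo4, Ipo7, Xpot, Nup54, Nup93 and Nup188, and those with TTCCCGCC were Ranbp1, Nup133 and Nup210, so no gene held both. The stretches that lie wholly upstream of the annotated gene are shown for 8 of them, with the matched letters in capitals, and with 2 matches for Ranbp1, of which the second is on the other strand. Nup188 holds a further CACGTG closer to its start, and Ipo4, Nup133 and Nup210 hold theirs in stretches inside or reaching into the gene.
Ran, chr5:129020011-129020070, plus strand: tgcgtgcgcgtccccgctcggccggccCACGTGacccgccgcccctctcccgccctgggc
Ranbp1, chr16:18248696-18248757, minus strand: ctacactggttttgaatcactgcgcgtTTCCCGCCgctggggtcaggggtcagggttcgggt
Ranbp1, chr16:18248779-18248840, minus strand: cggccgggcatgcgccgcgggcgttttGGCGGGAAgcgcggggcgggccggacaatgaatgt
Ranbp2, chr10:58446738-58446797, plus strand: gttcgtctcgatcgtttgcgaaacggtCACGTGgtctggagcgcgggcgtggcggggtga
Ipo7, chr7:110018151-110018210, plus strand: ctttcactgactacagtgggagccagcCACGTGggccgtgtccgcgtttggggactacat
Nup188, chr2:30286323-30286382, plus strand: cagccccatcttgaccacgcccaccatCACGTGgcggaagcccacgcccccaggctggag
Nup93, chr8:94214362-94214421, plus strand: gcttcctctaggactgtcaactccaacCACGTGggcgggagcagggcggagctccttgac
Nup54, chr5:92435267-92435326, minus strand: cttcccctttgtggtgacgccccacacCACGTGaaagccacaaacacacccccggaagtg
Xpot, chr10:121626531-121626582, minus strand: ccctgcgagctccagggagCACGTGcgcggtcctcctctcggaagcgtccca
The match in Ran starts 118 bases before the annotated gene start, that in Ranbp2 87 bases, that in Ipo7 137 bases and that in Nup93 175 bases before it, and those of Ranbp1 start 36 and 119 bases before it. For Nup188, Nup54 and Xpot the start used in the promoter table lies inside the annotated gene, so no distance is given. The 8 genes with CACGTG had a median log2 fold change of -0.71, from -1.06 to -0.24, and the 30 other tested genes with a promoter had one of -0.53. For TTCCCGCC the order was the other way, with medians of -0.52 in the 3 genes with it and -0.55 in the 35 without it. Of the 8 genes past 2-fold, Xpot held CACGTG, Xpo1, Tnpo1, Kpnb1, Ipo5 and Ipo11 held neither sequence in these windows, and Kpna3 and Nup43 had no promoter entry. A match is a string of letters and no evidence of binding, and whether it goes with the change was not tested.

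Among the genes of the Ran cycle, 3 of 4 fell and Rcc1 was not called, and both R111A values lay below both WT values for all 4. Ran itself (NCBI gene 19384, chr5:129020156-129024322) had 542 and 596 FPKM in WT against 308 and 299 in R111A. The R111A level was 53.3% of the WT mean, and the log2 fold change was -0.90 (standard error, SE, 0.12 and adjusted p = 0.00046). Rasl2-9, a relative of Ran looked up after the values were seen because reads of near copies can be shared, was listed at 0 in every library. So was Rps27, a ribosomal protein gene, so a 0 in this table does not show that a gene is silent. Ranbp1, the cytoplasmic partner that helps release Ran-GTP from receptors, had the highest level of all 49 genes. It had 749 and 832 FPKM in WT against 559 and 552 in R111A, which gave a log2 fold change of -0.51 (SE 0.12, adjusted p = 0.0084). The ratio of Ranbp1 to Ran was therefore 1.38 and 1.40 in WT and 1.82 and 1.84 in R111A. Rangap1, which stimulates GTP hydrolysis by Ran, had 79.5 and 74.8 FPKM in WT against 63.5 and 47.95 in R111A (log2 fold change -0.48, SE 0.16, adjusted p = 0.032). Rcc1, the exchange factor on chromatin, stayed closest to WT, with 94.98 and 98.1 FPKM in WT against 82.9 and 82.1 in R111A. Its groups did not overlap, but its log2 fold change of -0.22 (SE 0.12, adjusted p = 0.15) had a 95% interval from -0.50 to 0.05. It turned to 0.02 with quantile normalization and was called at -0.56 with TPM (adjusted p = 0.0029; 0.0029 to 0.90 over the alternatives). Ranbp1 lost its call without WT replicate 2 (adjusted p = 0.13; 7.6e-05 to 0.13 over the alternatives). Rangap1 lost it without either WT replicate, with no filter and under median-of-ratios or quantile scaling (adjusted p = 0.00062 to 0.22 over the alternatives). Its log2 fold change was -0.67 without R111A replicate 1 and -0.28 without R111A replicate 2.

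Importin alpha proteins are the adaptors that bind classical nuclear localization signals, and 3 of the 5 genes fell. The groups overlapped only for Kpna1. As reported, Kpna3 (NCBI gene 16648, chr14:61365186-61439947) fell furthest of the 48 genes tested, but not under every alternative. It had 46.0 and 46.6 FPKM in WT against 9.89 and 14.0 in R111A, 25.8% of the WT mean (log2 fold change -1.89, SE 0.17, adjusted p = 5.5e-05). Kpna4, its close relative in sequence and in the choice of cargo, had 56.7 and 57.2 FPKM in WT against 30.4 and 37.2 in R111A (log2 fold change -0.74, SE 0.14, adjusted p = 0.0026). Kpna6 fell by 0.61 (SE 0.14, adjusted p = 0.0060), a call lost without WT replicate 1 (adjusted p = 0.15; 0.00025 to 0.15 over the alternatives). Kpna2, the most abundant adaptor here and one that is high in proliferating cells, had 151 and 147 FPKM in WT against 95.97 and 136 in R111A. The change of -0.38 on the log2 scale was not called (SE 0.17, adjusted p = 0.094). It was -0.63 without R111A replicate 2 and -0.13 without R111A replicate 1. Among others, it was called after scaling to TPM (-0.71, adjusted p = 0.0031), but not with quantile normalization (-0.15, adjusted p = 0.51). Kpna1 had 40.1 and 37.2 FPKM in WT against 30.5 and 39.7 in R111A, so its groups overlapped. Its log2 fold change of -0.15 (95% interval -0.51 to 0.21) turned to 0.04 without R111A replicate 1 and to -0.33 without R111A replicate 2 (adjusted p = 0.029; 0.026 to 1.00 over the alternatives). The makeup of the family shifted with this. Kpna3 made up 14.8% and 15.3% of the summed importin alpha FPKM in WT and 5.58% and 5.90% in R111A, and Kpna2 made up 48.5% in each WT library and 54.1% and 57.4% in R111A. The ratio of Kpna2 to Kpna3 was 3.28 and 3.16 in WT and 9.70 and 9.73 in R111A.

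In the importin beta family, the receptors that cross the pore with cargo on the way in, 7 of 9 genes fell. Of the 9, 4 fell by more than 2-fold, against 8.34% of all genes, and the groups overlapped only for Ipo13. Kpnb1 (NCBI gene 16211, chr11:97159710-97187892) encodes importin beta, which carries importin alpha and its cargo. It had 175 and 174 FPKM in WT against 74.1 and 73.6 in R111A, with almost no spread within a group (log2 fold change -1.23, SE 0.12, adjusted p = 8.2e-05). Tnpo1 (NCBI gene 238799, chr13:98839019-98926384) encodes transportin, the receptor of many RNA-binding proteins. It had 52.5 and 50 FPKM in WT against 13.4 and 18.4 in R111A, 31.0% of the WT mean (log2 fold change -1.64, SE 0.17, adjusted p = 9.6e-05). Ipo5 and Ipo7 encode import receptors of ribosomal proteins and histones. Ipo5 had 191 and 168 FPKM in WT against 68.2 and 78.0 in R111A (log2 fold change -1.29, SE 0.14, adjusted p = 0.00012). Ipo7 had 102 and 104 FPKM in WT against 40.4 and 67.4 in R111A (log2 fold change -0.96, SE 0.21, adjusted p = 0.0056). By their ratio, its R111A libraries were further apart from each other than for any other of the 48 genes. Ipo11 fell by 1.20 (SE 0.18, adjusted p = 0.00081), from 22.6 and 26.3 FPKM to 8.35 and 12.0 FPKM. Of the less abundant receptors, Ipo9 fell by 0.86 and Ipo8 by 0.47, and Ipo8 lost its call without either WT replicate (adjusted p = 0.21 and 0.20; 0.00087 to 0.21 over the alternatives). Ipo4 and Ipo13 were not called. Ipo4, another receptor of histones, had 54.9 and 53.2 FPKM in WT against 51.2 and 40.6 in R111A (log2 fold change -0.24, 95% interval -0.58 to 0.10). Its log2 fold change was -0.40 without R111A replicate 1 and -0.08 without R111A replicate 2. Among others, it was called lower with TPM (-0.57, adjusted p = 0.0051), but not with quantile normalization (-0.05, adjusted p = 0.82). Ipo13, a receptor that works in both directions, had 13.5 and 12.2 FPKM in WT against 13.7 and 10.4 in R111A. Its log2 fold change of -0.10 (95% interval -0.48 to 0.27) turned to 0.08 without R111A replicate 2, and it was called at -0.42 with TPM (adjusted p = 0.046; 0.046 to 0.94 over the alternatives).

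Of the 7 exportin genes, 6 fell. Both R111A values lay below both WT values for all 7, against 46.3% of all genes. Xpo1 (NCBI gene 103573, chr11:23255909-23297597), which encodes CRM1, the receptor for leucine-rich nuclear export signals, had 66.6 and 71.2 FPKM in WT against 15.2 and 22.0 in R111A. The R111A level was 27% of the WT mean, and the log2 fold change was -1.86 (SE 0.18, adjusted p = 7.3e-05). Of the 48 genes, only Kpna3 fell further as reported. Xpo1 fell further than Kpna3 with a pseudocount of 5 FPKM (-1.66 against -1.61) and without WT replicate 1 (-1.904 against -1.895). Xpot, the exporter of tRNA, had 44.4 and 44.1 FPKM in WT against 18.6 and 23.1 in R111A (log2 fold change -1.06, SE 0.15, adjusted p = 0.00050). Cse1l returns importin alpha to the cytoplasm. It had 84.2 and 85.3 FPKM in WT against 34.5 and 54.7 in R111A, where the 2 libraries differed 1.59-fold (log2 fold change -0.95, SE 0.20, adjusted p = 0.0044). Xpo5, the exporter of microRNA precursors, fell by 0.90, from 34.1 and 31.8 FPKM to 17.9 and 16.5 FPKM. Xpo4 fell by 0.93 and Xpo7 by 0.75, and Xpo7 lost its call without WT replicate 1 (adjusted p = 0.054; 4.3e-05 to 0.054 over the alternatives). Xpo6, the exporter of actin, was not called, with 59.8 and 54.9 FPKM in WT against 50.2 and 37.9 in R111A (log2 fold change -0.38, 95% interval -0.75 to -0.02, adjusted p = 0.072). Its log2 fold change was -0.58 without R111A replicate 1 and -0.19 without R111A replicate 2. Among others, it passed with TPM (-0.71, adjusted p = 0.0017), but not with quantile normalization (-0.19, adjusted p = 0.37).

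**Figure D4:**
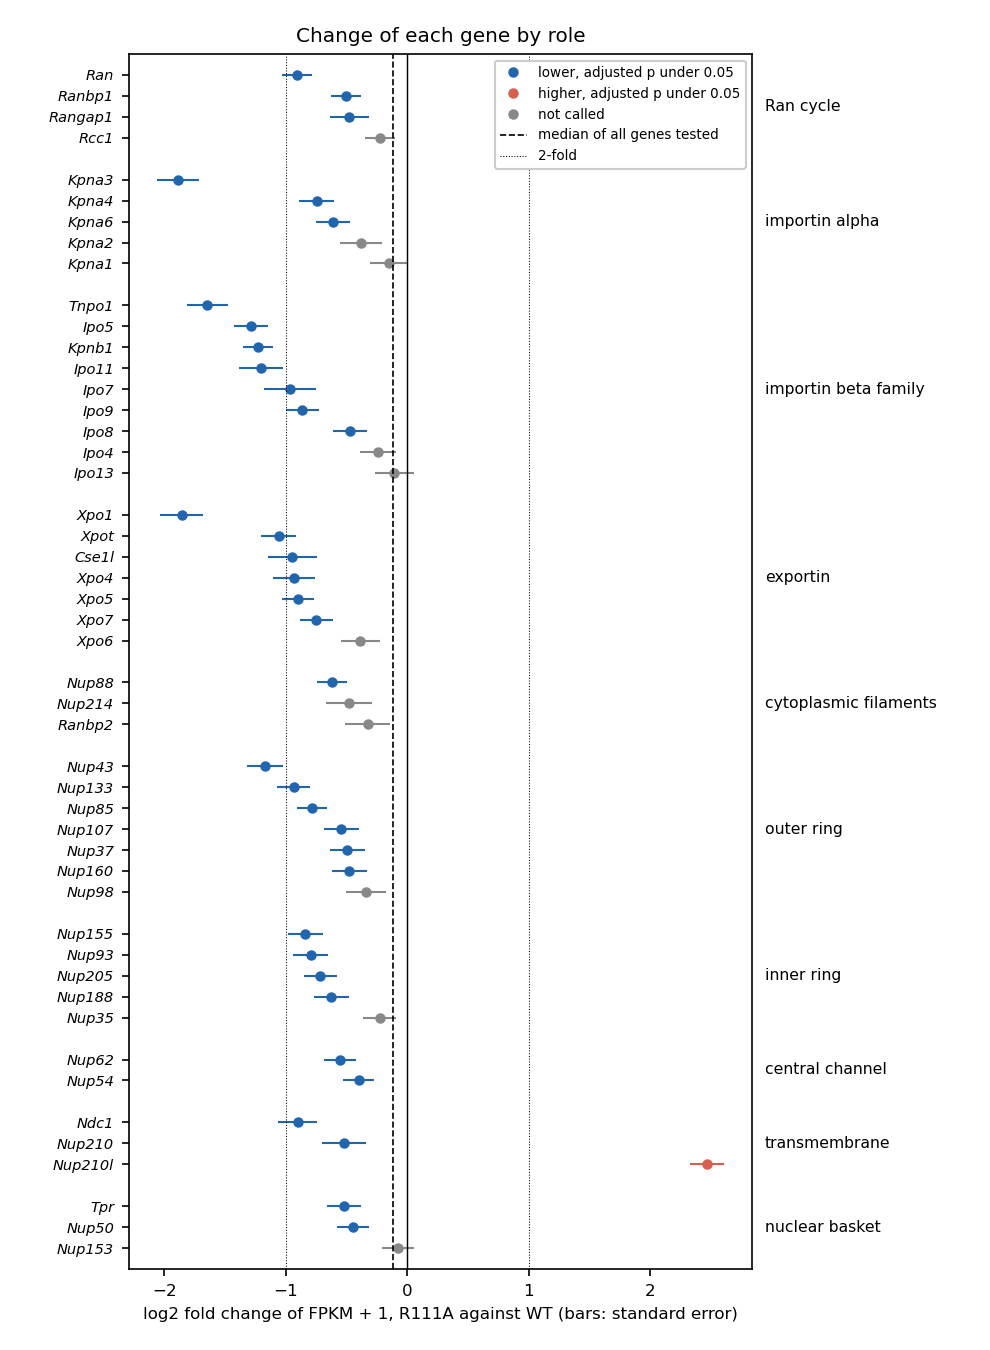
Log2 fold change of FPKM + 1 with its standard error for the 48 genes tested (2 libraries in each group), by role. Blue genes fell and the red gene, Nup210l, was called higher at an adjusted p under 0.05, grey genes were not called, and Nup153, Rcc1, Kpna1 and Ipo13 are those whose sign turned under at least 1 alternative.

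In the scaffold of the pore, 10 of 12 ring genes taken in by the naming rule were called lower. Of the 12, 1 was past 2-fold, a share near the 8.34% of all genes. Both R111A values lay below both WT values for all 12, against 46.3% of all genes. In the outer ring, made by the Y complex, 6 of the 7 genes taken in by the naming rule fell. Nup43 (NCBI gene 69912, chr10:7667504-7678886) had 74.4 and 74.7 FPKM in WT against 29.1 and 36.5 in R111A (log2 fold change -1.17, SE 0.15, adjusted p = 0.00029). Nup85 had 53.7 and 53.6 FPKM in WT against 31.2 and 30.3 in R111A (log2 fold change -0.78, SE 0.13, adjusted p = 0.0011). Nup107 had 48.1 and 50.5 FPKM in WT against 30.5 and 36.9 in R111A (log2 fold change -0.54, SE 0.14, adjusted p = 0.012). Nup133 fell by 0.93, Nup37 by 0.49 and Nup160 by 0.48, all subunits of the same complex. Nup107, Nup37 and Nup160 lost their calls without either WT replicate and with quantile normalization, at adjusted p-values of up to 0.15, 0.29 and 0.29 over the alternatives, from 0.00034, 0.00053 and 0.00091 at the lowest. Nup98, whose transcript encodes both an FG nucleoporin and the Y complex subunit Nup96, was not called (log2 fold change -0.34, 95% interval -0.72 to 0.04). Its log2 fold change was -0.52 without R111A replicate 1 and -0.16 without R111A replicate 2. Among others, it was called with TPM (-0.665, adjusted p = 0.0040).

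Inner ring genes fell in 4 of 5 cases. Nup205 had 48.4 and 43.1 FPKM in WT against 26.0 and 29.1 in R111A (log2 fold change -0.71, SE 0.14, adjusted p = 0.0027). Nup93, which links the scaffold to the central channel, had 48.6 and 44.8 FPKM in WT against 29.1 and 24.2 in R111A (log2 fold change -0.79, SE 0.14, adjusted p = 0.0020). Nup188 and Nup205 are related large scaffold proteins, and Nup188 had 31.0 and 27.1 FPKM in WT against 19.9 and 17.1 in R111A (log2 fold change -0.62). Nup155 fell by 0.84, and Nup35 was not called at -0.23 (95% interval -0.54 to 0.09). With TPM, Nup35 was called lower (-0.54, adjusted p = 0.00775). Without WT replicate 1, Nup188 and Nup205 lost their calls (adjusted p = 0.15 and 0.066, the highest over the alternatives, from 0.00021 and 4.2e-05).

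Of the FG nucleoporins of the central channel, whose flexible repeats fill the passage, the 2 taken in by the naming rule both fell. Their groups did not overlap. Nup62 had 51.5 and 50.6 FPKM in WT against 36.2 and 32.8 in R111A (log2 fold change -0.55, SE 0.13, adjusted p = 0.0071). Nup54 had 50.9 and 48.02 FPKM in WT against 36.4 and 38.2 in R111A (log2 fold change -0.40, SE 0.13, adjusted p = 0.028). Both lost the call without either WT replicate, at adjusted p-values of up to 0.12 for Nup62 and 0.33 for Nup54 over the alternatives, from 0.00016 and 0.00080. Nup54 also lost it under median-of-ratios or quantile scaling (adjusted p = 0.073 and 0.17).

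On the cytoplasmic face, 1 of 3 genes fell, a share near the 32.1% of all genes. Nup88 had 58.0 and 59.3 FPKM in WT against 37.4 and 38.2 in R111A (log2 fold change -0.62, SE 0.12, adjusted p = 0.0034). It lost the call without either WT replicate (adjusted p = 0.059 and 0.075; 8.4e-05 to 0.075 over the alternatives). Nup214, its partner, had 13.01 and 10.6 FPKM in WT against 9.75 and 6.81 in R111A. Its log2 fold change of -0.48 missed the threshold (SE 0.19, adjusted p = 0.058). It was -0.71 without R111A replicate 1 and -0.25 without R111A replicate 2. Among others, it passed with TPM (-0.79, adjusted p = 0.0025). Ranbp2, or Nup358, the filament protein that holds sumoylated RanGAP1 at the pore, had 53.7 and 49.0 FPKM in WT against 33.4 and 49.7 in R111A. The groups overlapped, and the log2 fold change was -0.33 (95% interval -0.75 to 0.10). It became -0.60 without R111A replicate 2 and -0.05 without R111A replicate 1. Among others, it was called with TPM (-0.65, adjusted p = 0.0088).

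In the nuclear basket, Tpr and Nup50 fell and Nup153 did not. Tpr, which forms the filaments of the basket, had 74.8 and 61.9 FPKM in WT against 47.3 and 47.2 in R111A (log2 fold change -0.52, SE 0.14, adjusted p = 0.014). Nup50, which binds importin alpha, had 35.6 and 35.3 FPKM in WT against 27.3 and 24.4 in R111A (log2 fold change -0.44, SE 0.13, adjusted p = 0.021). Tpr lost its call without WT replicate 1 (adjusted p = 0.29) and with quantile normalization, and Nup50 without either WT replicate (adjusted p = 0.23 and 0.22) and under median-of-ratios or quantile scaling. Over the alternatives their adjusted p-values ran from 0.00038 to 0.29 and from 0.00055 to 0.23. Nup153, the FG nucleoporin of the basket, had 57.9 and 51.6 FPKM in WT against 50.7 and 52.8 in R111A, so its groups overlapped. Its log2 fold change was -0.08 (95% interval -0.38 to 0.22). It was called lower with TPM (-0.41, adjusted p = 0.027; 0.027 to 0.99 over the alternatives), and it was positive with median-of-ratios factors (0.01), with quantile normalization (0.13), without WT replicate 1 (0.0029) and after a correction for transcript length and GC content (0.03).

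Of the transmembrane nucleoporins, Ndc1 and Nup210 fell. Ndc1, which anchors the pore in the envelope, had 11.6 and 11.1 FPKM in WT against 4.86 and 6.42 in R111A (log2 fold change -0.90, SE 0.16, adjusted p = 0.0018). Nup210 had 50.5 and 43.9 FPKM in WT against 38.7 and 27.4 in R111A (log2 fold change -0.52, SE 0.18, adjusted p = 0.037). Its call was lost without WT replicate 1 (adjusted p = 0.25), WT replicate 2 (0.069) or R111A replicate 2 (0.086), with no filter and under median-of-ratios or quantile scaling (0.00092 to 0.25 over the alternatives). Nup210l (NCBI gene 77595, chr3:90101007-90212151) is related to Nup210 by name. It had 0.33 and 0.26 FPKM in WT against 5.78 and 6.56 in R111A, a log2 difference of 2.47, given as a description because only the R111A values brought it past the filter. On the log2 scale the change ran from 1.08 with a pseudocount of 5 FPKM to 3.99 with one of 0.1 FPKM. In R111A its level was still below that of Nup210 in every library, per length of transcript.

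Spread within the R111A group was larger than in WT. The log2 values of the R111A libraries were over 0.30 apart for 19 of the 48 genes (39.6%, against 33.8% of all genes tested), with replicate 2 above replicate 1 for 12 of them and below it for 7. No WT pair among the 48 genes was that far apart, and 5.3% of WT pairs over all genes were. After Ipo7 and Cse1l, the ratio of R111A replicate 2 to 1 was highest for Ranbp2 (1.49), Xpo1 (1.45), Ipo11 (1.44), Kpna2 (1.42) and Kpna3 (1.42). It was lowest for Nup214 (0.698) and Nup210 (0.708). Leaving out a WT library leaves the spread to this wider pair, and leaving out an R111A library leaves it to the WT pair.

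The transcripts of these genes differ in their untranslated ends, a feature the choice of genes did not use. In GENCODE annotation of GRCm38, the 3' untranslated region had a median length of 2281 bases in the 8 genes that fell by more than 2-fold, of 1132 bases in the 28 others that fell, and of 511 bases in the 11 that were not called. Across the 48 genes, the log2 fold change and this length had a Spearman correlation of -0.39 (-0.36 without Nup210l), and GC content of the transcript one of 0.34. Over all genes tested with such annotation, the correlation was -0.04 with the length (9747 genes) and 0.02 with GC content (9768 genes). These are descriptions across genes that share the same 4 libraries and are not independent replicates. Nup43, with a region of 84 bases, fell by more than 2-fold, and Kpna1, with one of 3223 bases, was not called. After the correction of each library for transcript length and GC content, 40 of the 48 genes were called lower. Over all genes it called 36.1% lower and 28.4% higher, against 32.1% and 21.2% as reported.

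**Figure D5:**
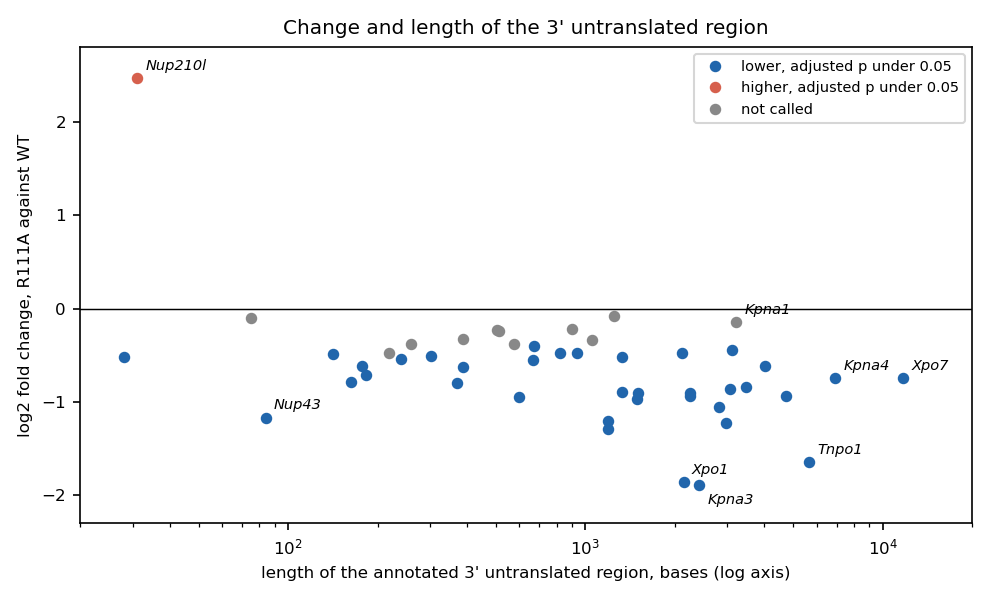
Log2 fold change of the 48 genes tested against the length of the annotated 3' untranslated region of the transcript with the longest coding sequence, on a log axis. Xpo1, Kpna3 and Tnpo1 have long regions and the most negative values, and Nup43 combines a region of 84 bases with a fold change of -1.17.

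Genes next to these in the same machinery, outside the naming rule, had changes in both directions. Of 9 other nucleoporins, 5 fell and 1 rose, against 32.1% and 21.2% of all genes tested, with a median log2 fold change of -0.55. Aaas, the nucleoporin ALADIN, had 46.7 and 43.4 FPKM in WT against 99.6 and 87.8 in R111A (log2 fold change 1.04, SE 0.13, adjusted p = 0.00033). Ahctf1, which seeds pore assembly on chromatin, fell by 0.77 and Rae1, an mRNA export factor at the pore, by 0.73. Of 10 other transport factors tested of 11, 4 fell and none rose, with a median of -0.17, and the share that fell is near the 32.1% of all genes. Rangrf, a Ran-binding protein also named Mog1, had 115 and 121 FPKM in WT against 39.7 and 46.7 in R111A (log2 fold change -1.44, SE 0.14, adjusted p = 6.6e-05), and Tnpo2 fell by 0.66 and Nutf2, the import factor of Ran, by 0.53. Ranbp17 was listed at 0 in every library.

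Of 22 mRNA export factors, 6 fell, 1 rose and 15 were not called, near or under the 32.1% and 21.2% of all genes, with a median log2 fold change of -0.12, the same as that of all genes to 2 decimals. The main export receptor of mRNA, Nxf1, named here after its values were seen, had 97.8 and 89.9 FPKM in WT against 101 and 96.4 in R111A. Ddx19a, the helicase that releases mRNA at the pore exit, fell by 1.25 and the adaptor Fyttd1 by 1.06, and Alyref2 rose by 1.19 from low levels (1.73 and 2.40 FPKM in WT against 6.01 and 5.88 in R111A). In the nuclear envelope and lamina, 5 of 12 genes tested fell and 2 rose, near the shares of all genes (32.1% and 21.2%). Lmnb1, encoding lamin B1, fell by 1.37 and Tmpo, encoding a lamina-associated protein, by 1.26, while Sun2, which ties the envelope to the cytoskeleton, rose by 1.19. All 6 MCM genes, which encode the replicative helicase, fell (against 32.1% of all genes), by 1.32 (Mcm6) to 2.93 (Mcm3 and Mcm5) on the log2 scale. Whether the change of the pore and transport genes goes with that of these lists was not tested.

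Summed markers of other cells differed between the groups, at low levels. Most of these markers were below the filter, and those tested mostly passed it only through R111A, so no count of calls is given for them. The 10 myeloid markers summed to 5.64 and 2.88 FPKM in WT and to 19.8 and 14.8 FPKM in R111A, with Cd68 the most abundant, while Tyrobp was lower in the R111A mean (2.94 and 0.63 FPKM in WT against 0.85 and 0.97 in R111A, groups overlapping). The 9 erythroid and platelet markers summed to 0.94 and 1.01 FPKM in WT and to 22.9 and 23.3 FPKM in R111A, nearly all of it Hba-a1 and Itga2b. The 4 NK cell markers summed to 0.93 and 0.82 FPKM in WT and to 7.30 and 4.91 FPKM in R111A, with Eomes the most abundant. S100a9, Hbb-bs, Hba-a2 and Pf4 were listed at 0 in every library, which the zero of Rps27 keeps from being read as absence. Of 8 markers of CD4+ T cells 5 fell and 1 rose, against 32.1% and 21.2% of all genes, with sums of 1897 and 1879 FPKM in WT and of 1502 and 1384 FPKM in R111A, Cd3g being the most abundant. Of the markers of regulatory T cells, Foxp3 fell from 11.3 and 8.78 FPKM to 2.86 and 1.86 FPKM and Ikzf2 was not called, and of CD8+ T cells Cd8b1 fell from 7.21 and 6.56 FPKM to 3.86 and 4.39 FPKM. The part of other cells in the values of the pore and transport genes was not tested.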

How the data were processed

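The authors selected polyA RNA, trimmed adaptors and low-quality bases, aligned reads to mm10 with Bowtie2 (2.4.4) and estimated expression with RSEM (1.2.28), as the study's methods and the submitters' processing notes state. They deposited FPKM values, 1 column per library and not pooled. FPKM is no count, and how many reads lie behind a value is not known.

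Genes averaging 1 FPKM or more were tested as log2(FPKM + 1) with limma (3.58.1 in R 4.3.3; lmFit, eBayes with trend, Benjamini-Hochberg adjustment over all genes tested), without covariates. The procedure was tested on simulated data with the same spread in both groups, although the R111A libraries here spread more widely. It recovered 77% of 200 genes changed 1.5-fold (7 false calls) and 99.5% of 200 changed 2-fold (10 false calls). The genes named with values were the Ran cycle, the 3 most abundant of each other role, those past 2-fold, those higher and those not tested; other members are named, some with values, to account for each. From other lists the 3 largest called changes were named, and further genes after their values were seen. The ratios between genes, the gap of 0.30 between replicates and the transcript features were also chosen after values were seen. Members and lists were chosen with earlier results of these data known. Gene coordinates are from RefSeq (all 49 matched by gene ID) and transcript features from GENCODE vM21. Python 3.11.15 and pandas 2.3.3 made the tables. Pseudocounts, filters, scalings, a replicate block, the trend and left-out libraries were varied.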

Additional observations from a re-analysis of the deposited data

How the results depend on the processing

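The number of genes called lower (36) stayed between 28 and 47 under the settings that kept all 4 libraries, and ranged from 21 to 40 with 1 library left out, where the lone library is assumed to vary like the pair of the other group. Over all genes, the share called lower moved too, from 32.1% as reported to 51.8% with TPM and 26.8% with quantile normalization. These settings gave the 47 and the 28. With no filter the share was 19.8%, with 34 of the pore and transport genes called lower. The share over all genes fell without a WT library and rose without an R111A library, so these ranges do not describe the pore and transport genes alone. The number past 2-fold (8) was 22 after rescaling to TPM and otherwise 6 to 12. Both counts of genes higher (1 and 1) were 0 and 0 when genes averaging under 5 FPKM were dropped, which removed Nup210l, and all 47 genes then tested in limma had negative fold changes. The median log2 fold change (-0.62) was -0.52 with a pseudocount of 5 FPKM, -0.94 with TPM, -0.53 with median-of-ratios factors, -0.47 with quantile normalization and -0.56 after the correction for transcript length and GC content, an alternative chosen after seeing the data. With 1 library left out it lay between -0.67 and -0.59. Relative to the median of all genes it stayed between -0.61 (no filter) and -0.43 (quantile normalization).

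Signs turned for 4 genes that were not called. Nup153 was at 0.0127 with median-of-ratios factors, 0.13 with quantile normalization and 0.0269 with the length and GC correction, and with 1 library left out ranged from -0.1585 (WT replicate 2) to 0.0029 (WT replicate 1). Rcc1 was at 0.0211 with quantile normalization. With 1 library left out, Kpna1 ranged from -0.3318 (without R111A replicate 2) to 0.0381 (without R111A replicate 1), and Ipo13 from -0.288 (without R111A replicate 1) to 0.08 (without R111A replicate 2). The cause was not tested. All 11 genes not called passed with TPM, a setting that called 51.8% of all genes lower. Some of them passed under other alternatives too.

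The replicate numbers share only a number (correlation of deviations 0.11). With a replicate block, 39 genes were called lower, the 36 among them, 8 past 2-fold, and 1 higher, 1 past 2-fold, and the median stayed at -0.62. Over all genes the block called 34.2% lower and 22.7% higher, against 32.1% and 21.2% without it.

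The comparison rests on 2 libraries a group with unknown read numbers, and the R111A libraries spread more widely than the WT libraries.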

Other observations

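Nup210l lies on chromosome 3 between Tpm3, which ends 104 bases before it, and Rps27 and Rab13, which start 515 and 1563 bases after it. Rps27 was listed at 0 in every library, and Creb3l4, a gene further on that side, had 0.05 and 0.05 FPKM in WT against 0.10 and 0.06 in R111A. Its neighbours were read because it was the only one of the 48 nuclear pore and transport genes tested that was called higher, a choice made after its values were seen. Tpm3, a tropomyosin gene, had 426 and 404 FPKM in WT against 364 and 298 in R111A and was not called in limma (log2 fold change -0.33, adjusted p = 0.073). Rab13, a small GTPase gene below the filter, had 0.09 and 0.10 FPKM in WT against 0.91 and 0.79 in R111A. 1700094D03Rik, 32659 bases before it, rose from 1.68 and 2.06 FPKM to 9.07 and 10.6 FPKM (log2 fold change 1.92, adjusted p = 3.0e-05), while 4933434E20Rik and Ubap2l on that side and Jtb, Slc39a1 and Crtc2 on the other were not called. Dennd4b, 52868 bases after it, fell by 1.07. Whether the values of these neighbours are related was not tested.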
